A study of Mus musculus with 3 samples.

Results

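The interferon response genes were followed across the stromal classes of the aged mouse thymus. They were a list of 39 genes chosen by symbol, of which 37 had a row among the 32293 features of the count tables. Mx1 and Mx2, both antiviral GTPases of the same family, had no row and are not analysed here. All 37 genes passed the filter on low counts in the fits of the 4 stromal classes and in those of the epithelial subsets, so no gene of the 37 was lost to it. The data were single-cell RNA sequencing counts of 3 libraries of CD45- thymic stroma from untreated C57BL/6 mice aged 20 months, with 1 library for each of these groups: Foxn1Lin female, Foxn1Lin male, wild type male. Foxn1Lin mice carry a Foxn1 lineage trace, in which a Cre driven by Foxn1 leaves a reporter in cells with a history of expressing that gene. Per the protocol text the thymi of several mice were pooled, so a library was 1 pool and no group had a replicate. That text names female mice for every library, whereas the sex labels differ, and the labels were used. The labels of the wild type library call it CD45- in the title and CD45-PECAM1+ as a cell type. Of its 3798 barcodes in 1 class only 859 were endothelial, so it held all 4 stromal classes.

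Interferons are secreted proteins that warn cells of infection. Type I and type III interferons signal through Janus kinases to a complex of STAT proteins with Irf9, which binds a promoter element called ISRE, and interferon gamma acts through a related route and through Irf1. The genes switched on block viral RNA, trap virions, sense foreign nucleic acid or destroy the vacuoles of intracellular microbes. In the thymus, interferon response genes are known to be expressed in the epithelium without infection.

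The libraries held 8616, 3583 and 5478 called barcodes with 53366016, 33386621 and 61258534 unique molecular identifiers (UMIs), in the order female Foxn1Lin, male Foxn1Lin, male wild type, which is the order of all values in 3 libraries given from here on. A barcode was called a thymic epithelial cell (TEC) with at least 2 UMIs of Epcam, an endothelial cell (EC) with at least 2 of Pecam1, a fibroblast (FB) with at least 2 of Pdgfra and mural with at least 5 of Rgs5 and Acta2 together. Barcodes that met gates of more than 1 class were dropped (529, 173 and 430). There were 475, 427 and 871 TEC, 1903, 818 and 859 EC, 1875, 864 and 1713 FB and 433, 449 and 355 mural barcodes. All 6 TEC markers, 6 EC markers, 7 FB markers and 7 mural markers examined had their highest level in the class they name. The gate genes Epcam, Pecam1, Pdgfra, Rgs5 and Acta2 are among them, and their rank was set by the gates. Libraries shared 8, 14 and 3 barcodes pairwise. UMIs of a class were summed within a library and each gene was given as CPM, its UMIs divided by all UMIs of the sum and scaled to a common total. Droplets with few UMIs, called empty droplets here, measured the free RNA of each suspension, and gene levels are given beside theirs.

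Promoters of the listed genes were searched first, since the ISRE is the sequence through which interferon reaches many of them. RefSeq windows of 300 bases (250 before and 50 after the start site, GRCm38.p6) were found for 30 of the 39 genes. The motif GAAANNGAAA was searched on both strands, so it also appears as its reverse complement. It occurred in 17 of these 30 genes, or 56.7%, and in 3.99% of all 27025 genes with a window. The motif TTCNNNGAA, the element bound by STAT dimers, occurred in 9 of the 30 genes (30.0%) and in 9.55% of all genes. A match describes letters in a window and was not taken as a binding site. The following stretches of 50 bases, with every match of GAAANNGAAA in capitals, belong to genes whose values are given at length below, in the classes or in the epithelial subsets.
Isg15 (chr4:156200855-156200904, minus strand): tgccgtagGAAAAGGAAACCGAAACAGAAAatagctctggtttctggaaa
Ifit1 (chr19:34640784-34640833, plus strand): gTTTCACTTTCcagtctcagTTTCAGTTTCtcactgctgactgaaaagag
Ifit3 (chr19:34583387-34583436, plus strand): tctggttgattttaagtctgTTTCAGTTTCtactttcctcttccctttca
Ifit3b (chr19:34607783-34607832, plus strand): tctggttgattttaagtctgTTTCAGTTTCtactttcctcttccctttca
Rsad2 (chr12:26456543-26456592, minus strand): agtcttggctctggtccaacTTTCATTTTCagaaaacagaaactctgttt
Bst2 (chr8:71537567-71537616, minus strand): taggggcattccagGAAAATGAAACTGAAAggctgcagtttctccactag
Gbp2 (chr3:142620584-142620633, plus strand): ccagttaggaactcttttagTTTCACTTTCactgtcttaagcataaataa
Isg15 held 3 overlapping matches and Bst2 2, whereas Rsad2 and Gbp2 held 1 each. The stretches of Ifit3 and Ifit3b, neighbouring copies on chromosome 19, were identical at 50 of 50 bases. Ifit2 (34550694 to 34576419), Ifit3 (34583531 to 34588731), Ifit3b (34607970 to 34613401) and Ifit1 (34640871 to 34650009) lie there in this order on the plus strand of GRCm38. Genes with and without the motif stood on both sides of the pattern: Ifit2 led the EC genes and Oasl2 was among the leading TEC genes, and neither held GAAANNGAAA in its window.

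Summed over the 37 genes, the level was 6924, 9027 and 8526 CPM in EC, the highest of the 4 classes in each library. In TEC it was 5087, 7053 and 7554 CPM. FB had 2736, 3348 and 4699 CPM and mural barcodes 2469, 4450 and 5596 CPM. Empty droplets had 3186, 4932 and 5314 CPM, above FB in all 3 libraries and above mural barcodes in the Foxn1Lin libraries. The class means were 8159 ± 1099 CPM in EC, 6565 ± 1304 in TEC, 3594 ± 1004 in FB and 4172 ± 1582 in mural barcodes (SD, n = 3 libraries). EC and TEC, next to each other in this order, overlapped in their ranges, as did TEC and mural barcodes, and mural barcodes and FB.

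**Figure D1:**
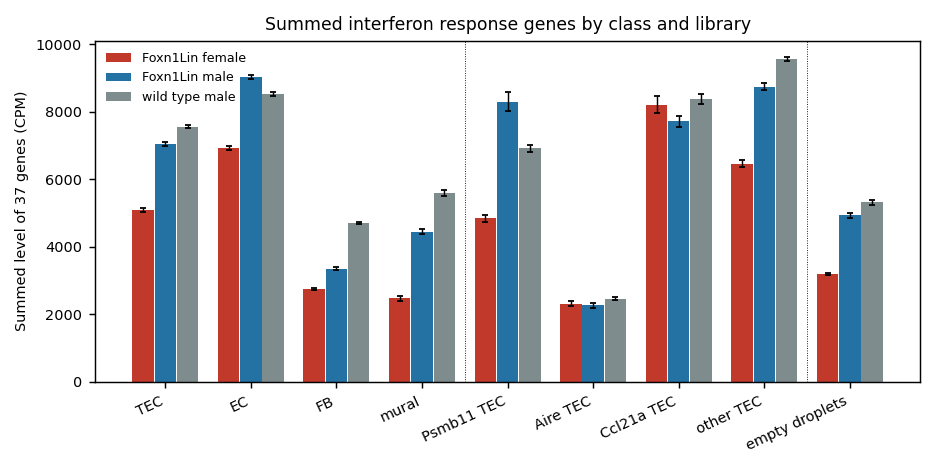
Summed level of the 37 interferon response genes in CPM (vertical axis) for each class, epithelial subset and the empty droplets (horizontal axis), with 1 bar per library and exact 95% Poisson intervals that cover counting error only. EC stood highest of the 4 classes, in a range that overlapped those of Ccl21a TEC and of other TEC, which met none of the subset gates. Aire TEC stood lowest of all sums, between 2259 and 2460 CPM, below the empty droplets of every library.

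Single genes weighed heavily in these sums. Iigp1, an immunity-related GTPase on chromosome 18, supplied 25.8% to 30.3% of the summed level in EC. Ifi27l2a, which encodes a small hydrophobic protein, supplied 16.3% to 24.3% in TEC and 0.272% to 1.41% in EC. Without these genes the sums averaged 5751 ± 884 CPM in EC, 4229 ± 599 in TEC, 2453 ± 707 in FB and 3041 ± 1059 in mural barcodes (SD, n = 3), in the same order.

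**Figure D2:**
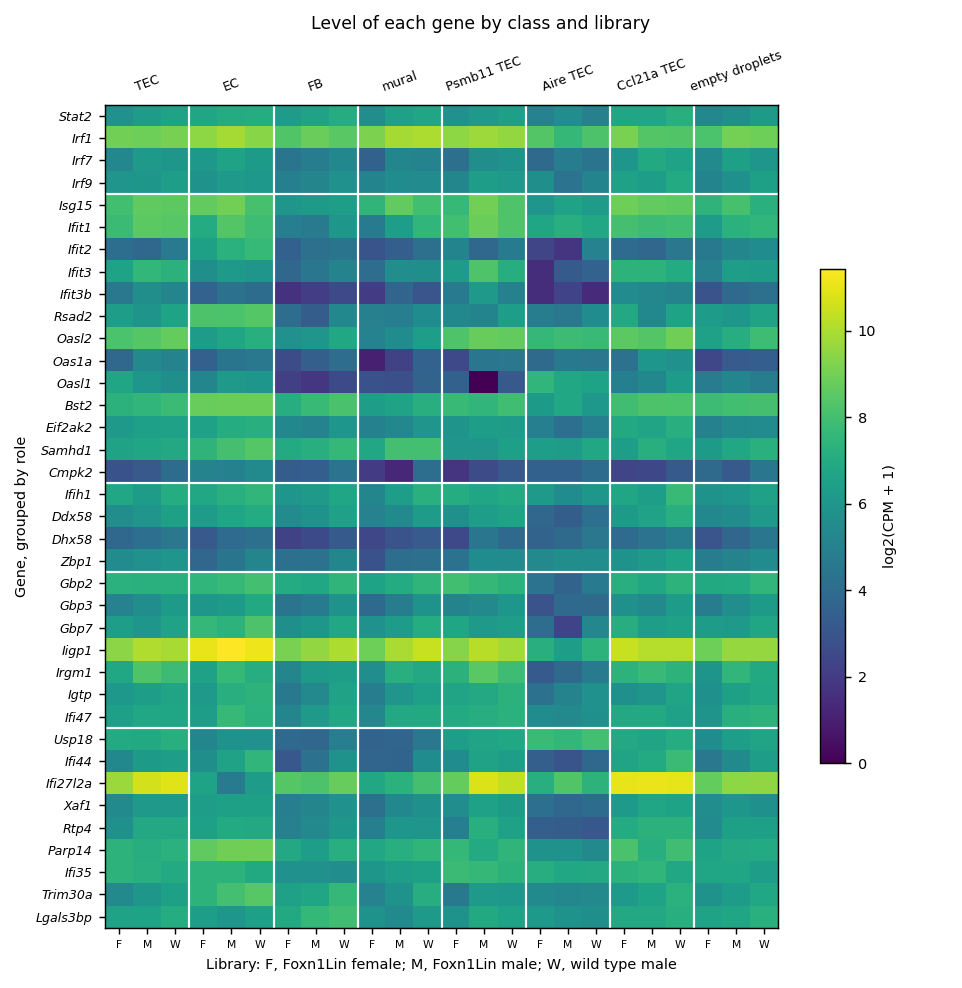
Level of each of the 37 genes as log2(CPM + 1) (colour), with genes in rows by role (transcription factors, antiviral effectors, nucleic acid sensors, GTPases, other induced genes) and class and library in columns. The rows of Ifit2, Rsad2, Bst2 and Iigp1 are brightest in EC, those of Ifi27l2a, Oasl2 and Ifit3 in TEC outside Aire TEC, and the GTPase rows darken in Aire TEC.

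Of 37 genes, 32 were higher in EC than in the mean of TEC, FB and mural barcodes and 1 was lower, by edgeR's quasi-likelihood test on the class sums with the library as block (adjusted P under 0.05). Of all 17629 genes tested, 23.3% were higher and 22.8% lower in this contrast. The median log2 fold change was 1.01 for the listed genes and -0.06 for all genes tested. All 4 transcription factors, all 7 GTPases, 11 of 13 antiviral effectors, 3 of 4 nucleic acid sensors and 7 of 9 other induced genes were higher. A gene could be called higher against this mean and still be higher in TEC than in EC, as Usp18 and Ifit3b were. By mean CPM, EC was the highest class for 23 of the 37 genes and TEC for 12. Erythroid markers (4 genes) also stood highest in EC, with 3070, 1044 and 512 CPM against 0.348 to 656 CPM in the other classes and 3776, 42.1 and 38.0 CPM in empty droplets, and their part in these values was not tested.

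Ifit2 and Rsad2 stood furthest above the other classes. Ifit2, a tetratricopeptide repeat protein that restricts viral translation, had 88.3, 155 and 198 CPM in EC, 16.2, 13.3 and 24.9 in TEC, 10.8, 17.3 and 20.0 in FB and 6.87, 9.84 and 17.5 in mural barcodes. Its level in EC exceeded that of every other class sum without overlap, and it was the only class above the empty droplets (23.6, 37.2 and 46.0 CPM) in all 3 libraries. The log2 fold change of Ifit2 was 3.44 ± 0.15 (SE, edgeR adjusted P = 7.27e-07). Rsad2 encodes viperin, an enzyme that makes a chain-terminating nucleotide. Rsad2 had 296, 285 and 338 CPM in EC against 81.9, 58.6 and 97.8 in TEC, 15.7, 9.16 and 39.2 in FB and 29.9, 28.8 and 46.5 in mural barcodes. EC again stood apart, with a log2 fold change of 3.23 ± 0.21 (edgeR adjusted P = 3.77e-06). Cmpk2, a nucleotide kinase on the same chromosome as Rsad2, had 33.3, 31.8 and 43.0 CPM in EC and no more than 19.4 CPM in any other class sum (log2 fold change 2.23 ± 0.28, edgeR adjusted P = 0.000197).

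Bst2, or tetherin, which holds virions at the cell surface, had 436, 459 and 456 CPM in EC. It had 158, 184 and 218 CPM in TEC, 136, 213 and 276 in FB and 80.0, 94.4 and 144 in mural barcodes, so that EC did not overlap with any class. The log2 fold change was 1.70 ± 0.13 (edgeR adjusted P = 8.91e-06). Parp14, an ADP-ribosyltransferase, had 390, 492 and 491 CPM in EC and at most 176 in the other class sums (log2 fold change 1.92 ± 0.15, edgeR adjusted P = 1.25e-05). Trim30a, a ubiquitin ligase family member, had 168, 252 and 345 CPM in EC and 40.6, 65.1 and 87.7 in TEC, and FB at 90.5, 105 and 195 overlapped with EC (log2 fold change 1.78 ± 0.16, edgeR adjusted P = 2.62e-05). Ifi44 rose by 1.84 ± 0.24 on the same scale (edgeR adjusted P = 0.000257). Of the transcription factors, Irf7, the amplifier of type I interferon production, had 67.5, 95 and 72.5 CPM in EC and changed by 1.35 ± 0.20 (edgeR adjusted P = 0.000468). Stat2, the STAT partner of Irf9, changed by 0.71 ± 0.13 (edgeR adjusted P = 0.00161) and Irf1 by 0.66 ± 0.16 (edgeR adjusted P = 0.00888). Isg15, a ubiquitin-like modifier, had 408, 507 and 270 CPM in EC, a range that overlapped those of TEC and mural barcodes, and changed by 1.24 ± 0.19 (edgeR adjusted P = 0.000739).

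The GTPases, which attack membranes around intracellular microbes, were called higher in EC in all 7 cases, as the transcription factors were in all 4. Iigp1 had 2096, 2727 and 2202 CPM in EC, 689, 1077 and 981 in TEC, 556, 756 and 1035 in FB and 480, 988 and 1391 in mural barcodes. Every EC value of Iigp1 was above every value of the other classes. Gbp7 had 191, 166 and 298 CPM in EC and at most 131 elsewhere, and Gbp2 had 183, 199 and 259 CPM in EC and ranged from 98.1 to 178 elsewhere. Summed over the 7 GTPases, EC had 3276 ± 468 CPM, TEC 1600 ± 327, mural barcodes 1459 ± 664 and FB 1221 ± 417 (SD, n = 3).

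Against the mean of TEC, FB and mural barcodes, the exceptions in EC were few. Ifi27l2a had 97.6, 24.6 and 76.5 CPM in EC, against 425, 714 and 730 CPM in empty droplets, and was lower than in the other classes by a log2 fold change of -2.62 ± 0.42 (edgeR adjusted P = 0.000902). Ifit3, Oasl2, Zbp1 and Lgals3bp were not called. For Ifit3 the log2 fold change was 0.51 ± 0.19 (edgeR adjusted P = 0.0547), with EC at 49.8, 71.9 and 61.0 CPM between TEC and the other classes. In all, 27 of the 37 genes were above the level of the empty droplets in EC of all 3 libraries and 5 were at or below it. The count of higher genes was 23 without the Foxn1Lin male library and 31 without either of the others, and the count of lower genes was 2 without the Foxn1Lin female library.

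**Figure D3:**
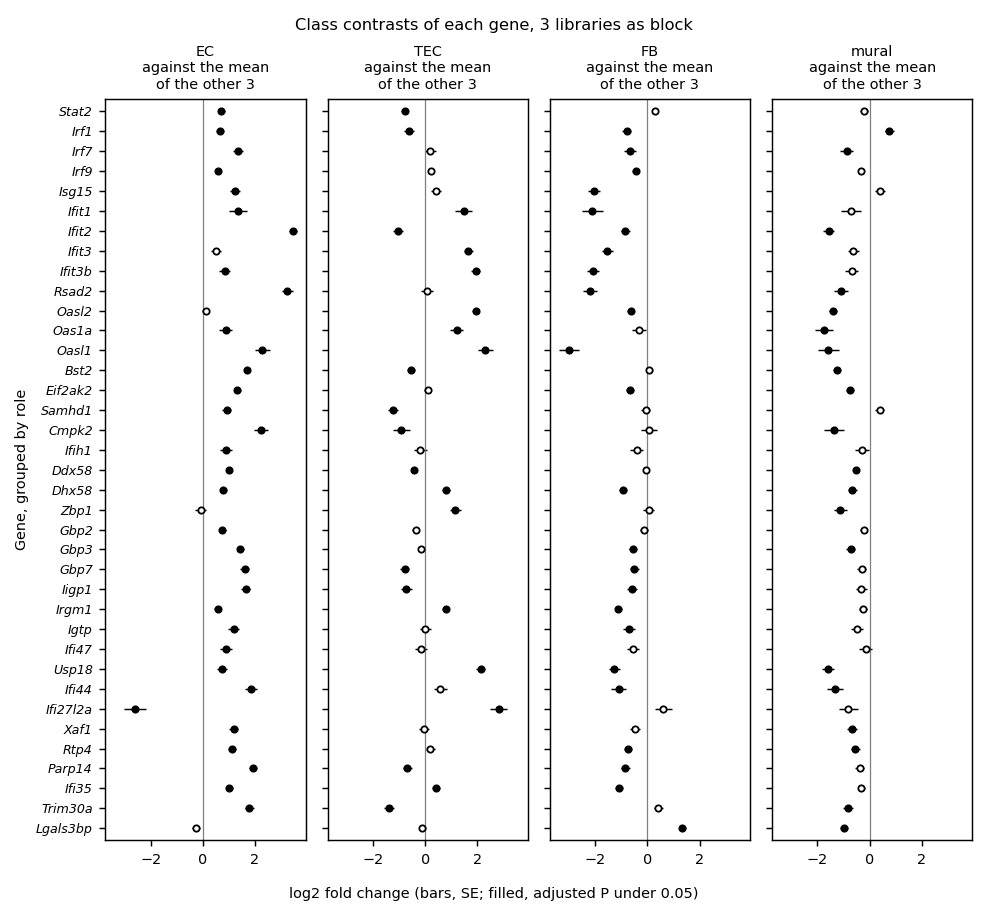
Log2 fold change of each gene (horizontal axis, bars show the SE) in each class against the mean of the other 3, over 3 libraries, with filled points for an edgeR adjusted P under 0.05. In EC 32 filled points lie to the right of 0 and 1 to the left. In TEC 12 lie to the right and 11 to the left, in FB 1 and 23, and in mural barcodes 1 and 19.

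The epithelium was split. In TEC, 12 of 37 genes were higher and 11 lower than in the mean of the other classes, where 32.4% of all genes were higher and 26.2% lower, and the median log2 fold change was 0.07 for the listed genes and 0.08 for all genes. The share of listed genes called in each direction was thus close to that of all genes. Of the antiviral effectors 6 were higher and 4 lower. The TEC barcodes also had the largest hematopoietic marker level of the 4 classes (10 genes, 447 to 797 CPM, against 18.4 to 207 in the others). Most of that sum came from Cd52 (234 to 411 CPM), Laptm5 (86.5 to 138) and Rac2 (48.0 to 99.0), whereas Ptprc, which encodes CD45, had 6.03 to 24.7 CPM in TEC and 17.2 to 63.7 in EC. The part of such cells in these values was not tested.

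Ifi27l2a, Oasl2, Usp18 and the Ifit3 pair formed the epithelial side. Ifi27l2a had 831, 1592 and 1838 CPM in TEC, 343, 296 and 439 in FB and 114, 154 and 264 in mural barcodes, with no overlap between TEC and any class (log2 fold change 2.82 ± 0.32, edgeR adjusted P = 7.47e-05). Oasl2, a relative of the oligoadenylate synthetases that sense double-stranded RNA, had 293, 341 and 420 CPM in TEC and 77.2, 102 and 142 in EC. The log2 fold change of Oasl2 was 1.94 ± 0.12 (edgeR adjusted P = 2.99e-06). Usp18, a protease that removes Isg15 from proteins and restrains the type I receptor, had 125, 121 and 145 CPM in TEC and at most 56.8 in other classes (log2 fold change 2.14 ± 0.17, edgeR adjusted P = 1e-05).

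Ifit3 had 98.5, 186 and 161 CPM in TEC, 13.7, 21.2 and 33.3 in FB and 15.7, 47.7 and 49.8 in mural barcodes. TEC were above all other class sums in Ifit3, with a log2 fold change of 1.65 ± 0.18 (edgeR adjusted P = 5.75e-05). Ifit3b, its neighbouring copy, changed by 1.93 ± 0.19 (edgeR adjusted P = 2.6e-05), and Ifit1, which binds viral RNA ends, by 1.48 ± 0.33 (edgeR adjusted P = 0.00371). Of the 31-base words in the last 500 bases of Ifit3 transcripts, 24.0% also occur in Ifit3b, so reads of the pair can be assigned only in part. The same share was 70.0% for Oas1a with Oas1g and 21.0% for Trim30a with Trim30d. Oasl1, which in mice holds back the translation of Irf7, had 107, 63.4 and 49.7 CPM in TEC and 36.3, 69.1 and 62.3 in EC, so it was shared by both classes (log2 fold change 2.31 ± 0.30 in TEC, edgeR adjusted P = 0.000157, and 2.28 ± 0.30 in EC, edgeR adjusted P = 0.000254).

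On the lower side in TEC were Trim30a, Samhd1, Stat2 and Irf1. Samhd1, which depletes the nucleotides that viruses need, had 93.8, 104 and 117 CPM in TEC and 173, 261 and 336 in EC (log2 fold change -1.24 ± 0.19, edgeR adjusted P = 0.000397). Trim30a fell by 1.38 ± 0.19 (edgeR adjusted P = 0.000228), Stat2 by 0.78 ± 0.14 (edgeR adjusted P = 0.000989) and Bst2 by 0.54 ± 0.14 (edgeR adjusted P = 0.00966). Irf1 changed by -0.62 ± 0.17 (edgeR adjusted P = 0.0124), with 2 of the 3 libraries in that direction. Isg15 had 245, 395 and 370 CPM in TEC (log2 fold change 0.41 ± 0.20, edgeR adjusted P = 0.103), and Irf7 changed by 0.20 ± 0.20 (edgeR adjusted P = 0.435). Of 14 genes that respond to tissue dissociation, 10 were lower and 0 higher in the same contrast, with a median log2 fold change of -0.79, and their part in the lower genes was not tested. The count of lower genes in TEC was 5 without the Foxn1Lin male library and 5 without the wild type male library, and 7 in a fit without the library block.

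In FB, 1 of 37 genes was higher and 23 were lower, beside 20.6% and 19.9% of all genes. The median log2 fold change was -0.65 for the listed genes and -0.06 for all genes. Isg15 had 60.0, 74.2 and 84.5 CPM in FB and between 179 and 507 in the other class sums, so FB lay below all of them (log2 fold change -2.05 ± 0.23, edgeR adjusted P = 0.000154). Oasl1 was at 3.48, 2.55 and 4.98 CPM in FB and changed by -3.00 ± 0.39 (edgeR adjusted P = 0.000339). Rsad2 changed by -2.20 ± 0.27 (edgeR adjusted P = 0.000232), Ifit1 by -2.12 ± 0.40 (edgeR adjusted P = 0.00285) and Ifit3 by -1.53 ± 0.22 (edgeR adjusted P = 0.000537). Ifit3b changed by -2.07 ± 0.23 (edgeR adjusted P = 0.000148), Usp18 by -1.27 ± 0.21 (edgeR adjusted P = 0.00117), Irgm1 by -1.11 ± 0.15 (edgeR adjusted P = 0.000387) and Ifi44 by -1.10 ± 0.28 (edgeR adjusted P = 0.0116). Of the transcription factors, Irf1 changed by -0.79 ± 0.18 (edgeR adjusted P = 0.00636) and Irf7 by -0.67 ± 0.22 (edgeR adjusted P = 0.0341). The values of Stat2 (0.29 ± 0.13, edgeR adjusted P = 0.104) and Bst2 (0.08 ± 0.14, edgeR adjusted P = 0.704) did not pass the test. Lgals3bp, a secreted glycoprotein, was the only gene that was higher. It had 121, 192 and 241 CPM in FB, 95.1, 97.3 and 135 in TEC, 80.0, 63.1 and 87.2 in EC and 55.0, 42.6 and 70.2 in mural barcodes (log2 fold change 1.34 ± 0.14, edgeR adjusted P = 8.49e-05). FB was the highest class for Lgals3bp in each library. In FB 21 of 37 genes were at or below the empty droplets in all 3 libraries and 7 were above them. The count of lower genes fell to 11 without the Foxn1Lin male library and to 10 without the library block. In the latter fit not every gene named here as lower kept the call.

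Mural barcodes resembled FB in these counts, with 1 gene higher and 19 lower beside 16.9% and 13.5% of all genes. The median log2 fold change was -0.68 for the listed genes and -0.08 for all genes. Oasl2 had 31.9, 45.6 and 81.2 CPM in mural barcodes (log2 fold change -1.40 ± 0.15, edgeR adjusted P = 0.000125). Usp18 changed by -1.61 ± 0.23 (edgeR adjusted P = 0.000726), Ifit2 by -1.56 ± 0.21 (edgeR adjusted P = 0.000487) and Bst2 by -1.24 ± 0.15 (edgeR adjusted P = 0.000281). Oas1a changed by -1.75 ± 0.33 (edgeR adjusted P = 0.00365), Oasl1 by -1.59 ± 0.41 (edgeR adjusted P = 0.0162), Cmpk2 by -1.37 ± 0.39 (edgeR adjusted P = 0.0246), Ifi44 by -1.32 ± 0.31 (edgeR adjusted P = 0.0103), the nucleic acid sensor Zbp1 by -1.13 ± 0.24 (edgeR adjusted P = 0.00718) and Irf7 by -0.88 ± 0.23 (edgeR adjusted P = 0.0188). The values of Ifit3 (-0.63 ± 0.22, edgeR adjusted P = 0.0531), Isg15 (0.40 ± 0.20, edgeR adjusted P = 0.169) and Stat2 (-0.22 ± 0.14, edgeR adjusted P = 0.263) did not pass the test. Irf1, the factor through which interferon gamma reaches many targets, was the gene that was higher. It had 564, 949 and 1043 CPM in mural barcodes, 711, 930 and 664 in EC, 510, 480 and 531 in TEC and 321, 444 and 355 in FB. Mural and EC values of Irf1 overlapped, and the log2 fold change in mural barcodes was 0.75 ± 0.16 (edgeR adjusted P = 0.00692). Of the 14 dissociation response genes, among them Fos and Jun, 10 were higher and 0 lower in the same contrast, and the list had 16701, 24479 and 25303 CPM in mural barcodes against 9872 to 21294 in the other classes. Its part in the level of Irf1 was not tested. Irf1 was not called without the Foxn1Lin male or the wild type male library (0 genes higher), and 2 genes were higher without the Foxn1Lin female library. The count of lower genes was 8 without the Foxn1Lin male library and 7 without the library block. Some of the genes named here as lower thus lost the call in these fits.

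Within the epithelium, barcodes with at least 2 UMIs of Aire stood apart. Aire drives the expression of tissue genes in medullary epithelium for the education of T cells, Psmb11 encodes a proteasome subunit of the cortical epithelium, and Ccl21a a chemokine of medullary epithelium. There were 116, 64 and 155 Aire TEC, 65, 11 and 64 Psmb11 TEC (at least 2 UMIs) and 44, 74 and 95 Ccl21a TEC (at least 10 UMIs). The summed level of the 37 genes was 2306, 2259 and 2460 CPM in Aire TEC, 4842, 8301 and 6919 in Psmb11 TEC and 8207, 7719 and 8381 in Ccl21a TEC. Aire TEC did not overlap with either subset and were below the empty droplets of their own library. TEC in none of these gates had 6455 to 9564 CPM. With 6924 to 9027 CPM, EC overlapped in range with them and with Ccl21a TEC. By single gene, EC and Ccl21a TEC overlapped for Irf7, Stat2, Isg15 and Ifi44. Rtp4 was higher in Ccl21a TEC (129 to 160 CPM) than in EC (89.4 to 125). Ifit2, Rsad2, Bst2 and Iigp1 were higher in EC than in Ccl21a TEC without overlap.

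Against Psmb11 TEC, 24 of 37 genes were lower in Aire TEC and 3 were higher, where 17.5% of the 14030 genes tested were lower and 28.1% higher. Against Ccl21a TEC, 28 were lower and 3 higher, where 15.4% of all genes were lower and 25% higher. Both comparisons use the same Aire TEC sums. The median log2 fold change was -1.27 and -1.36 for the listed genes and 0.19 in both for all genes. The 7 GTPases were lower in both.

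Ifit3 was the gene with the largest fall in Aire TEC in both comparisons. It had 1.79, 8.46 and 11 CPM there, 75.1, 307 and 139 in Psmb11 TEC, 167, 164 and 131 in Ccl21a TEC and 30.1, 83.2 and 75.1 in empty droplets. The highest Aire TEC value was below the lowest of any other group named. The log2 fold change of Ifit3 was -4.15 ± 0.46 against Psmb11 TEC (edgeR adjusted P = 4.38e-05) and -4.20 ± 0.46 against Ccl21a TEC (edgeR adjusted P = 5.88e-05). Irgm1, a regulatory GTPase of autophagy, had 8.33, 14.6 and 24.5 CPM in Aire TEC, 160, 363 and 236 in Psmb11 TEC and 167, 214 and 164 in Ccl21a TEC. Irgm1 changed by -3.71 ± 0.33 (edgeR adjusted P = 1.28e-05) and -3.33 ± 0.33 (edgeR adjusted P = 3.18e-05). Rtp4, a chaperone of membrane receptors, had 10.1, 9.23 and 7.44 CPM in Aire TEC and 129, 159 and 160 in Ccl21a TEC (log2 fold change -3.93 ± 0.39, edgeR adjusted P = 3.38e-05).

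The guanylate-binding protein Gbp2 had 19.0, 11.5 and 24.8 CPM in Aire TEC and 246, 195 and 161 in Psmb11 TEC (log2 fold change -3.21 ± 0.27, edgeR adjusted P = 1.03e-05). Iigp1 had 140, 84.6 and 167 CPM in Aire TEC and 1396, 1146 and 1137 in Ccl21a TEC (log2 fold change -3.08 ± 0.30, edgeR adjusted P = 2.98e-05). Ifi44 changed by -3.66 ± 0.28 against Ccl21a TEC (edgeR adjusted P = 7.41e-06). Ddx58, which encodes the RNA sensor RIG-I, changed by -2.84 ± 0.21 (edgeR adjusted P = 6.69e-06). Isg15 had 60.1, 95.4 and 78.6 CPM in Aire TEC, 202, 505 and 306 in Psmb11 TEC and 474, 409 and 382 in Ccl21a TEC, again with no overlap. For Isg15 the log2 fold change was -1.88 ± 0.24 against Psmb11 TEC (edgeR adjusted P = 0.000133) and -2.32 ± 0.25 against Ccl21a TEC (edgeR adjusted P = 4.93e-05). Irf7 changed by -0.78 ± 0.28 against Psmb11 TEC (edgeR adjusted P = 0.0441) and by -2.06 ± 0.28 against Ccl21a TEC (edgeR adjusted P = 0.00021), and the first of these was not called without the Foxn1Lin male or the wild type male library.

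Other genes were read in the same comparisons. Ifit3b changed by -3.87 ± 0.38 against Psmb11 TEC (edgeR adjusted P = 2.3e-05) and by -3.90 ± 0.39 against Ccl21a TEC (edgeR adjusted P = 3.24e-05). Against Psmb11 TEC, Rtp4 changed by -2.95 ± 0.40 (edgeR adjusted P = 0.00017), Ifi44 by -2.61 ± 0.28 (edgeR adjusted P = 3.95e-05), Iigp1 by -2.60 ± 0.30 (edgeR adjusted P = 5.68e-05) and Ddx58 by -2.31 ± 0.21 (edgeR adjusted P = 1.45e-05). Against Ccl21a TEC, Ifi27l2a changed by -3.28 ± 0.36 (edgeR adjusted P = 6.49e-05) and Gbp2 by -2.72 ± 0.27 (edgeR adjusted P = 3.39e-05). Bst2 changed by -1.17 ± 0.24 (edgeR adjusted P = 0.00232) and -1.57 ± 0.24 (edgeR adjusted P = 0.000456) against Psmb11 and Ccl21a TEC, and Stat2 by -0.76 ± 0.24 (edgeR adjusted P = 0.0229) and -1.55 ± 0.24 (edgeR adjusted P = 0.000505). Irf1 changed by -1.34 ± 0.25 against Psmb11 TEC (edgeR adjusted P = 0.00155), and its value of -0.38 ± 0.25 against Ccl21a TEC did not pass the test (edgeR adjusted P = 0.251).

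The same 3 genes, Usp18, Oasl1 and Cmpk2, were the ones called higher in Aire TEC in both comparisons. Usp18 had 217, 188 and 257 CPM in Aire TEC, 80.5, 102 and 116 in Psmb11 TEC and 118, 99.3 and 133 in Ccl21a TEC, with no overlap, and 45.6, 82.3 and 102 in empty droplets. Oasl1 had 183, 111 and 96.2 CPM in Aire TEC, 10.8, 0 and 8.01 in Psmb11 TEC and 29.6, 39.2 and 79.4 in Ccl21a TEC. The 0 of the Foxn1Lin male library, in the sum of 11 barcodes, allows up to 8.02 CPM by 3 UMIs. Against Psmb11 TEC the log2 fold change of Oasl1 was 4.23 ± 0.58 (edgeR adjusted P = 0.000185). Cmpk2 was low in all subsets, with 10.7, 10.8 and 15.4 CPM in Aire TEC and no more than 8.44 in Psmb11 or Ccl21a TEC. Against Ccl21a TEC, 1 gene instead of 3 was higher without the Foxn1Lin female library, without the Foxn1Lin male library, without barcodes with a Ptprc UMI, or without the barcodes with the highest doublet scores.

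Other measures moved with Aire TEC. The 14 dissociation response genes had 4123, 4360 and 4106 CPM in Aire TEC, 10900, 19616 and 13814 in Psmb11 TEC and 18561, 20657 and 12959 in Ccl21a TEC, and 13 of 14 were lower in each comparison. Their part in the lower interferon response genes was not tested. Hematopoietic markers summed to 1609, 1634 and 1366 CPM in Aire TEC, 388, 0 and 221 in Psmb11 TEC and 203, 68.4 and 18.3 in Ccl21a TEC. Of these 10 markers 0, 1 and 0 were at 0 UMIs in Aire TEC. Markers of plasmacytoid dendritic cells and macrophages, taken without Bst2, summed to 626 to 862 CPM in Aire TEC and 71.7 to 307 in the other gated subsets. In TEC as a whole most of this sum came from Irf8 (135 to 212 CPM) and Lyz2 (79.0 to 197). No other marker of that list exceeded 16.8 CPM there. When barcodes with a Ptprc UMI were left out, 25 genes were lower and 3 higher against Psmb11 TEC and 28 lower and 1 higher against Ccl21a TEC. In Aire TEC 24 of 37 genes were at or below the empty droplets in all 3 libraries, and 6 were above them (Oas1a, Oasl1, Dhx58, Zbp1, Usp18 and Ifi35).

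**Figure D4:**
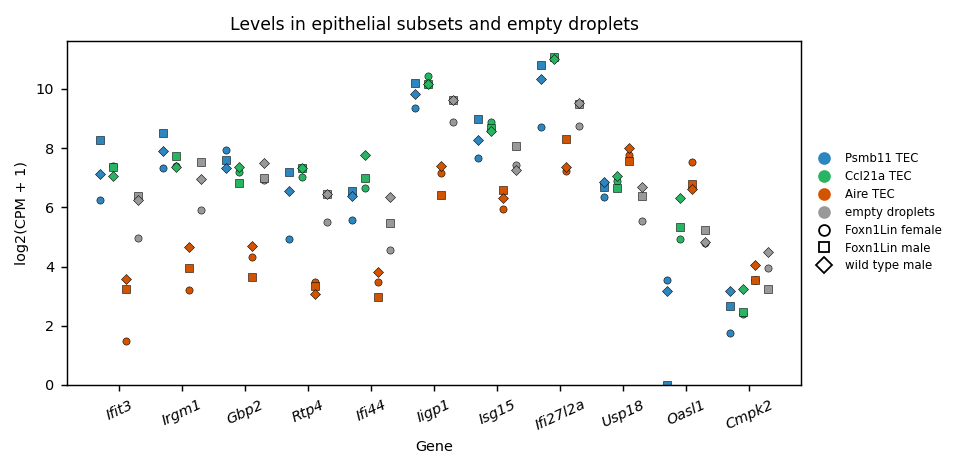
Level of 11 genes as log2(CPM + 1) (vertical axis) in Psmb11 TEC, Ccl21a TEC, Aire TEC and empty droplets, with 1 symbol per library. Aire TEC lie below all other groups for Ifit3, Irgm1, Gbp2, Rtp4, Ifi44, Iigp1, Isg15 and Ifi27l2a and above the other epithelial subsets for Usp18, Oasl1 and Cmpk2.

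Genes of the pathway outside the list were read in the same fits. Of 9 interferon genes examined, 5 had 0 UMIs in the 4 classes of all libraries, which in the smallest class sum allows up to 1.47 CPM by 3 UMIs, and Ifng, Ifnl2, Ifnl3 and Ifna2 had 26, 25, 13 and 7 UMIs in all. In EC, 4 of 6 receptor genes, 4 of 5 kinases and STATs and 4 of 6 upstream sensors and adaptors were higher, and 1, 0 and 0 were lower, beside 23.3% and 22.8% of all genes. Of 19 further interferon-induced genes 15 were higher in EC and 1 was lower. Of the 5 negative regulators 0 were higher and 2 lower, namely Socs1, an inhibitor of Janus kinases (log2 fold change -0.49 ± 0.14, edgeR adjusted P = 0.0199), and Ptpn2, a phosphatase of the pathway (-0.56 ± 0.20, edgeR adjusted P = 0.0464). Cgas, the sensor of cytosolic DNA, had 21.8, 61.6 and 56.5 CPM in EC and 2.06, 2.79 and 2.62 in TEC (log2 fold change 2.66 ± 0.20 in EC, edgeR adjusted P = 8.66e-06). Oas2, an oligoadenylate synthetase, had 40.9, 44.7 and 54.1 CPM in EC and at most 8.86 elsewhere (log2 fold change 4.01 ± 0.24, edgeR adjusted P = 2.66e-06).

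Receptor genes differed in their classes. Ifnlr1, the chain specific to type III interferon, had 13.4, 17.9 and 26.9 CPM in TEC and at most 2.17 in the other class sums (log2 fold change 4.65 ± 0.37, edgeR adjusted P = 9.23e-06). Ifngr1, of the interferon gamma receptor, had 61.1, 60.8 and 41.3 CPM in TEC, 189, 315 and 260 in EC and 197, 382 and 326 in FB (log2 fold change -1.99 ± 0.21 in TEC, edgeR adjusted P = 4.33e-05). Of the 6 receptor genes 1 was higher and 3 lower in TEC (beside 32.4% and 26.2% of all genes), 3 higher and 1 lower in FB (beside 20.6% and 19.9%), and 0 higher and 2 lower in mural barcodes (beside 16.9% and 13.5%). Within the epithelium Ifnlr1 was at 0.595, 2.31 and 3.58 CPM in Aire TEC, 12.6, 8.02 and 32.9 in Psmb11 TEC and 25.4, 25.5 and 28.8 in Ccl21a TEC (log2 fold change -3.43 ± 0.43 against Ccl21a TEC, edgeR adjusted P = 0.000143). In Aire TEC against Psmb11 TEC, 6 of 18 further interferon-induced genes tested were higher and 5 lower, beside 28.1% and 17.5% of all genes. Their difference from the listed genes was not tested. Ciita, the activator of class II major histocompatibility genes, was higher there, with 250, 176 and 212 CPM in Aire TEC and 96.7, 16 and 91.9 in Psmb11 TEC (log2 fold change 1.81 ± 0.31, edgeR adjusted P = 0.000911). Against Ccl21a TEC 2 of 18 were higher and 10 lower, beside 25% and 15.4%. Of the 19 further interferon-induced genes 4 were higher and 10 lower in TEC, 6 and 5 in FB, and 2 and 8 in mural barcodes. Beside them stand the same shares of all genes as given for the receptors. The counts of lower genes in TEC and mural barcodes stood furthest above these shares, and no count was tested against them. Of the 5 kinases and STATs 1 was higher and 3 lower in TEC, 1 and 0 in FB, and 0 and 2 in mural barcodes. The 6 upstream sensors and adaptors had 0 higher and 2 lower in TEC, 2 and 0 in FB, and 0 and 2 in mural barcodes, and the 5 negative regulators 2 and 2, 1 and 1, and 2 and 1. Ifi207, a nuclear DNA-binding protein of the PYHIN family, had 369, 394 and 293 CPM in FB and 11.8, 10.2 and 11.7 in TEC (log2 fold change 3.05 ± 0.21 in FB, edgeR adjusted P = 1.14e-05), so FB did not lie low throughout the pathway.

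Barcodes of 1 class differed widely in the share of their UMIs that fell on the 37 genes. In EC the median share was 0.589%, 0.739% and 0.730%, with 10% of barcodes above 1.26%, 1.53% and 1.58%. In TEC the median was 0.372%, 0.575% and 0.626% and the 90th percentile 1.29%, 1.42% and 1.56%, so the upper ends of both classes were closer than their medians. FB had medians of 0.207%, 0.265% and 0.378% and mural barcodes 0.162%, 0.342% and 0.423%. In Aire TEC the median was 0.192%, 0.146% and 0.180% and in Ccl21a TEC 0.854%, 0.688% and 0.773%. With each barcode thinned to 2000 UMIs, the variance of the number of UMIs on the 37 genes was 9.27, 9.49 and 10.6 times its mean in TEC, 6.38, 7.08 and 7.99 times in EC, 4.71, 4.64 and 6.21 times in FB and 7.27, 7.98 and 9.19 times in mural barcodes.

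Barcodes were also split by whether they held an Ifit3 UMI, which free RNA can also supply. The level of Ifit3 in EC was below that of the empty droplets in both male libraries (71.9 and 61.0 CPM against 83.2 and 75.1) and above it in the female library (49.8 against 30.1). In TEC it was above the empty droplets in all 3 libraries. At 2000 UMIs per barcode, 13.6%, 18.8% and 18.5% of TEC had an Ifit3 UMI, as did 9.46%, 8.83% and 10.0% of EC, 2.60%, 4.07% and 5.44% of FB and 0.862%, 1.56% and 2.61% of Aire TEC, the lowest share in each library. How many of the EC, FB and mural barcodes with Ifit3 held it from free RNA was not tested. In EC the 35 other genes (Ifit3b left out) summed to 10901, 13264 and 14226 CPM in barcodes with Ifit3 and 6571, 7963 and 8007 in those without, a ratio of 1.66, 1.67 and 1.78. Among genes with at least 20 UMIs in the class in each library, 35 of 35 in EC were higher with Ifit3 in all 3 libraries, beside 12.3% of all 7328 genes. The count was 29 of 31 in TEC (19.7% of 6102 genes), 23 of 31 in FB (10.4% of 8182) and 19 of 23 in mural barcodes (8.87% of 4802), where only 8, 25 and 18 barcodes held Ifit3. In TEC the ratio was 2.53, 2.09 and 2.11, and in TEC outside the Psmb11, Aire and Ccl21a gates 2.33, 1.82 and 1.83. Within the gates it was 1.51, 1.45 and 1.73 in Psmb11 TEC and 1.51, 1.75 and 1.52 in Ccl21a TEC. Aire TEC had 3.09, 6.04 and 1.34, on few barcodes with Ifit3. The part of the mix of subsets in the values of TEC was not tested. Without the minimum of 20 UMIs the exceptions in TEC among the 35 were Oasl1, Usp18, Cmpk2 and Oas1a. Of these Oasl1 was lower with Ifit3 in all 3 libraries (6.49 to 25.5 CPM against 57.1 to 139). These are values over barcodes of 1 library each and were not tested.

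Between libraries only ratios could be given, since each group was 1 library. The Foxn1Lin female library had lower interferon response genes than the Foxn1Lin male library, with a median log2 ratio of -0.34 in TEC, -0.46 in EC, -0.31 in FB and -0.75 in mural barcodes, where the median of all genes lay between 0.06 and 0.14. At least 2-fold lower were 4 of 37 genes in TEC, 4 of 37 in EC, 1 of 37 in FB and 14 of 35 in mural barcodes (genes with at least 20 UMIs over both libraries), beside 5.02%, 3.79%, 5.92% and 4.13% of all genes. In mural barcodes Ifit1 had 24.0 CPM (49 UMIs) in the Foxn1Lin female and 84.6 CPM (232 UMIs) in the Foxn1Lin male library, and Irgm1 48.1 and 142 CPM. In EC Ifit1 had 127 and 331 CPM, whereas Ifi27l2a went the other way, with 97.6 and 24.6 CPM. In TEC Irgm1 had 115 and 305 CPM. The 14 dissociation response genes were also lower in the Foxn1Lin female than in the Foxn1Lin male library in TEC (9872 and 14724 CPM), FB (15201 and 21294) and mural barcodes (16701 and 24479), but not in EC (13848 and 13341). Of all UMIs, 26.5% lay outside called barcodes in the Foxn1Lin female, 12.9% in the Foxn1Lin male and 9.46% in the wild type male library. The part of either in these ratios was not tested.

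The Foxn1Lin male library, which is in both comparisons, was below the wild type male library in FB and mural barcodes by a median log2 ratio of -0.66 and -0.50, beside -0.14 and -0.10 for all genes. In TEC the median was -0.18 beside -0.14 for all genes and in EC -0.08 beside -0.11. At least 2-fold lower were 0 genes in TEC, 1 in EC, 7 in FB and 6 in mural barcodes, beside 9.1%, 7.0%, 7.37% and 7.33% of all genes. In FB Rsad2 had 9.16 and 39.2 CPM and Ifi44 18.8 and 57.2 CPM. In mural barcodes Cmpk2 had 1.46 CPM (4 UMIs) and 16.3 CPM (40 UMIs). The empty droplets moved in the same direction, with median log2 ratios of -0.64 for Foxn1Lin female against male and -0.31 for Foxn1Lin male against wild type male, and the part of free RNA in the class values was not tested. Sex and pool cannot be told apart in the ratios of the Foxn1Lin female to the Foxn1Lin male library, nor can genotype and pool in those of the Foxn1Lin male to the wild type male library.

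**Figure D5:**
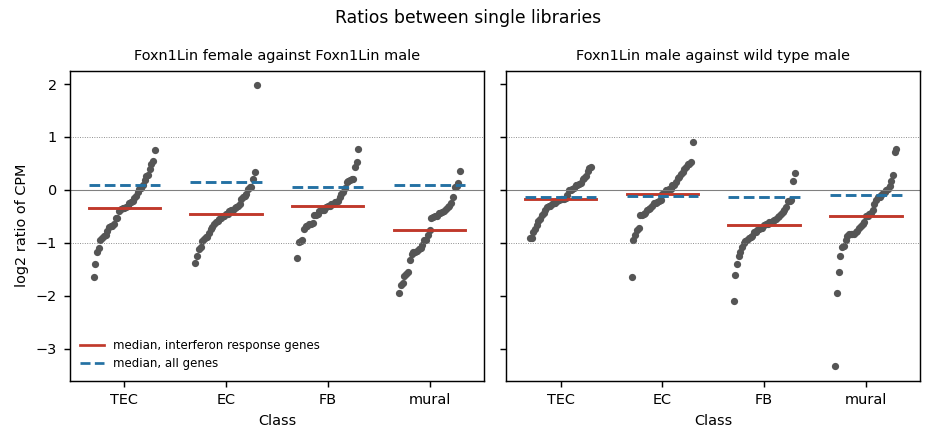
Log2 ratio of CPM between single libraries (vertical axis) for each gene with at least 20 UMIs over both, sorted within each class (horizontal axis), with the median of the interferon response genes as a solid line and of all genes as a dashed line. The solid line lies furthest below the dashed one in mural barcodes on the left (-0.75 against 0.09) and in FB on the right (-0.66 against -0.14).

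The genes outside the list whose level was most like the summed level over the 12 class sums, by Pearson's r of log2(CPM + 5) among 7379 genes, were Tdrd7 (r = 0.946), Gtdc1 (0.939), Khdc4 (0.926), Unc13b (0.920) and Trim12a (0.916). The 12 sums share 3 libraries, and this is a description. Tdrd7 averaged 48.7 CPM in TEC, 59.5 in EC, 29.7 in FB and 30.0 in mural barcodes.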

How the data were processed

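The deposited matrices held UMI counts as whole numbers, once for barcodes called as cells and once for every barcode. Cell Ranger (7.01 per the labels) was run by the authors to make the counts on mm10 (GRCm38) with reporter sequences added. The headers of the larger matrices name another release. Counting was by 3' tags, so levels are per molecule. Deposited library summaries were not used.

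A called barcode was removed if it had no more than 1000 genes and also a mitochondrial share of at least 20% (138, 149 and 222). Classes were set by the UMI gates given above. TEC that met more than 1 subset gate (18, 7 and 23) were left out of the subsets. Doublets were treated by dropping barcodes of several classes. Scrublet (scanpy 1.11.5) marked 0, 5 and 2 barcodes automatically, which is too few to be of use, so an alternative dropped the 349, 148 and 219 barcodes with the highest scores (3.9% of barcodes and ties at that score). Empty droplets were uncalled barcodes of 120 to 477, 20 to 78 and 26 to 103 UMIs.

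Counts summed per library and class were tested with edgeR 4.0.16 (quasi-likelihood, TMM, filterByExpr, library as block, Benjamini-Hochberg over all genes) in R 4.3.3, once over the 12 class sums and once over the 12 sums of TEC subsets. The 3 libraries differ in genotype and sex, and P values rest on the spread between them, within the block. The script was tested on simulated data with known changes. DESeq2 1.42.0 was an alternative, as were other filters, gates, scalings and leaving out each library. Intervals of sums are exact Poisson intervals at 95% and shares of barcodes carry counting error only.

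The listed genes, pathway genes and marker lists were chosen with earlier results of these data known. Statistics are printed for Irf7, Isg15, Ifit3, Bst2, Irf1 and Stat2 in each contrast and for up to 8 further genes with the largest change among those past the threshold, changed the same way in every library, with at least 10 UMIs in the higher class of each library. Pathway genes given with values were picked after these were seen. Reads of near-identical copies could be split or dropped by the counting. Ccl21a has a second row in the tables, with 1 UMI in each library, which was added to the first.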

Additional observations from a re-analysis of the deposited data

Results flagged for a closer look

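In 4 cases the Foxn1Lin female library moved the opposite way to both male libraries within 1 contrast. Each difference was seen in 1 library against the others and was not tested. In mural barcodes against the other classes, Samhd1 had a log2 ratio of -0.20 in the Foxn1Lin female, 0.68 in the Foxn1Lin male and 0.36 in the wild type male library. In Aire TEC against Psmb11 TEC, Irf9 had 0.44, -2.10 and -0.99 in the same order. Trim30a had 0.82, -0.95 and -0.74 in that contrast, and Lgals3bp 0.31, -1.14 and -0.93. The Psmb11 TEC sum of the Foxn1Lin male library held 11 barcodes.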

How the results depend on the processing

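Of 168 counts of called genes under the alternatives, 149 were within 1.5 times the count reported, and of 1174 values of single genes 1124 kept direction and call, 42 lost and 8 gained the call, and 0 reversed. Leaving out 1 library gave 1 to 2 lower genes in EC, 11 to 22 lower in FB, 5 to 13 lower in TEC, 0 to 2 higher and 8 to 15 lower in mural barcodes, and 1 to 2 higher in Aire against Ccl21a TEC. The library block paired the sums of a library. Without the library block 10 genes were lower in FB, 7 in TEC and 7 in mural barcodes, and 1 was higher in Aire against Ccl21a TEC, and no other count left the range of 1.5 times. With raised gates, with lowered gates and with no low-count filter 2 genes were higher in FB. With doublet scores or Ptprc barcodes removed 1 gene was higher in Aire against Ccl21a TEC. Removing doublets or raising the gates left 1 Psmb11 TEC sum under 10 barcodes, and it was left out of those fits. The cause of these changes was not tested, other than that fits without a library hold fewer sums.

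Median log2 ratios between libraries kept their sign. For Foxn1Lin female against male, TMM scaling gave -0.39 in TEC, -0.56 in EC and -0.89 in mural barcodes. Raised gates gave -0.32, -0.44 and -0.62 in the same classes and -0.26 in FB. Removing Ptprc barcodes gave -0.30 in TEC, and a minimum of 50 UMIs -0.85 in mural barcodes. For Foxn1Lin male against wild type male, TMM scaling gave -0.0910 in TEC, -0.0143 in EC, -0.57 in FB and -0.40 in mural barcodes. Raised gates gave -0.15 in TEC, -0.71 in FB and -0.46 in mural barcodes, and removing Ptprc barcodes -0.20 in TEC and -0.13 in EC. With 11 Psmb11 TEC in the Foxn1Lin male library, low genes there rest on few UMIs.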
